A study of Mus musculus with 8 samples.

Results

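Differentiating Krt13 and Krt4 epithelial cells were examined in single-cell RNA profiles of mouse tongue epithelium. Cells were kept when 1000 to 5500 genes were detected, when they held at most 30000 unique molecular identifiers (UMIs, one per captured transcript), and when at most 7% of the UMIs came from mitochondrial genes. A cell counted as differentiating when it had no UMI of Ptprc (the pan-leukocyte antigen CD45), at least 0.5% of its UMIs from Krt13, at least 1 UMI of 4 or more of 8 genes (Serpinb12, Sptssb, Gsta1, Gsta2, Ces1h, Tgm3, Fbp2 and Krt4), and fewer than 5 UMIs of Lor. This left 927 of 42550 deposited barcodes, or 927 of the 25199 barcodes within the limits on genes, UMIs and mitochondrial share. The cells were thus chosen by their measured levels of these genes, so the number of such cells and the levels of these genes are described here with no test.

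The surface epithelium of the tongue is stratified. Basal cells marked by Krt5 and Krt14 divide on the basement membrane, and their daughters move up, leave the cell cycle and replace the basal keratin pair with Krt4 and Krt13, the pair typical of soft-surfaced oral and oesophageal epithelium. Later products include transglutaminases, which cross-link envelope proteins, and loricrin (Lor), a late envelope protein that the selection kept low. YAP is the transcriptional effector of the Hippo pathway and works with TEAD factors, and in stratified epithelia it is associated with the undifferentiated basal state. The papillomavirus proteins E6 and E7 inactivate p53 and the retinoblastoma protein, and the latter holds differentiating cells out of S phase.

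The study asked how an active YAP and these viral proteins, alone and together, act on the oral epithelium, and it deposited 2 libraries for each of 4 genotypes. Group N carried Krt14-CreERT and LSL-rtTA only, group E added tetON_E6-E7, group Y added tetON_YAP1S127A (a YAP that escapes Hippo phosphorylation), and group EY carried both added alleles. All groups shared Krt14-CreERT and LSL-rtTA, and by the study's methods a tetON_H2B-GFP reporter as well, and all received tamoxifen injected into the tongue and a doxycycline diet until collection on day 15. The mice's ages are not given in the labels, and the keratin 14 promoter drives Cre in basal cells, so a differentiating cell carries an induced transgene only where a recombined basal cell was its source. Neither transgene is among the measured features, and the title of the second N library carries 2 animal numbers, so that it may pool animals. The libraries are called N1, N2, E1, E2, Y1, Y2, EY1 and EY2, with numbers that only name them.

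The selection genes are ordinary annotated mouse genes on build GRCm38. Krt13 lies on chromosome 11 from 100117327 to 100121566, Krt4 on chromosome 15 from 101918535 to 101924735 and Serpinb12, a serine protease inhibitor, on chromosome 1 from 106934449 to 106957080. The 250 bases before the transcription start were read from RefSeq for GRCm38.p6 for 8 of the 9 selection genes, and the sequences with a match to the motif of AP-1 or of TEAD are shown because these factors act in keratinocyte differentiation and downstream of YAP. Capitals mark the matched letters, TGANTCA for AP-1 in Krt13, Serpinb12 and Fbp2 and GGAATG for TEAD in Tgm3, and each sequence runs 5′ to 3′ on the strand of its gene.
Krt13, chr11:100121567-100121816, minus strand, AP-1 match starting 196 bases before the start: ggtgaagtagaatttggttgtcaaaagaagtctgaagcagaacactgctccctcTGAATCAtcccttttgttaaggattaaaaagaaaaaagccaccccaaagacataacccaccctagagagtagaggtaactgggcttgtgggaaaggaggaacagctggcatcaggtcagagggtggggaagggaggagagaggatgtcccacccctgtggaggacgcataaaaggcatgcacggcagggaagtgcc
Serpinb12, chr1:106934199-106934448, plus strand, AP-1 match starting 45 bases before the start: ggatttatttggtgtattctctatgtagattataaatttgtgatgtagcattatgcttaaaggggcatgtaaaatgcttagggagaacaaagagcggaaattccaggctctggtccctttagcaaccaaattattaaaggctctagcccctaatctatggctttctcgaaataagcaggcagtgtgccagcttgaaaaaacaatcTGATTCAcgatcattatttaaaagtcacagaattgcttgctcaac
Fbp2, chr13:62858401-62858650, minus strand, AP-1 match starting 47 bases before the start: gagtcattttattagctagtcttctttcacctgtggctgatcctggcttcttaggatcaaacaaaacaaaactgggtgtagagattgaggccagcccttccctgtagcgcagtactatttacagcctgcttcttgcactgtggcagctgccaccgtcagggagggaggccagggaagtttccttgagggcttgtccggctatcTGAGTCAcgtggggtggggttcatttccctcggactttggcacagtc
Tgm3, chr2:130012090-130012339, plus strand, TEAD match starting 91 bases before the start: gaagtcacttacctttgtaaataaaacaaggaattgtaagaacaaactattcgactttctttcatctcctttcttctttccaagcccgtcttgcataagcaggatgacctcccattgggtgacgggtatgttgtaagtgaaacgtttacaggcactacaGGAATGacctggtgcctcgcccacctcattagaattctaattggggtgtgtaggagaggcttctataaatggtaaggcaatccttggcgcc
With every start that RefSeq lists for a gene searched on both strands, the AP-1 letters stood in 3 of 8 selection genes and in 7.82% of 27025 genes. The TEAD letters stood in 2 of 8 (Tgm3, and Serpinb12 at a start other than the one shown) against 14.4%, the KLF letters GGGNGNGG in 7 against 48.5%, the TATA letters TATAAA in 4 against 14.3%, and the GRHL letters AACNNGTT in none against 4.11%. These matches describe letters in a fixed window.

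The levels of the selection genes follow from the choice and describe the cells. In CPM (UMIs of a gene per 1e+06 UMIs, summed over the differentiating cells of each library), Krt13 stood at 16047 and 14750 in the N pair (the lower number first, here and below), 17603 and 16189 in the E pair, 15300.0 and 14261 in the Y pair and 15084 and 10761 in the EY pair. Krt4 stood at 6027, 6895, 6669, 5199, 3765, 3395, 7698 and 5272 CPM in the same order, so among these selected cells the Y libraries were the lowest and EY1, with 3 cells, the highest. The order differed in cells that met the Krt13 and Ptprc limits but held fewer than 4 of the 8 genes. There Krt4 stood at 1294 to 2183 CPM in N and E, 2918 and 6272 CPM in the Y pair and 6021 and 6143 CPM in the EY pair. Basal comparison cells were taken as cells within the same limits with no Ptprc UMI, at least 0.5% of UMIs from Krt5 plus Krt14, less Krt13 than that, and at most 1 of the 8 genes. In them, over the 5 libraries with 20 or more differentiating cells (N1, N2, E1, E2 and Y1), Krt13 stood at 537 to 1070 CPM (median 611) and Krt4 at 84.4 to 270.2 CPM (median 115).

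The enzymes among the 8 genes followed the keratins. Tgm3, the epidermal transglutaminase, stood at 189.6 to 403 CPM in these 5 libraries against 0.532 to 6.07 CPM in basal comparison cells, and Ces1h, a carboxylesterase, at 175 to 353 against 2.72 to 16.02 CPM. Serpinb12 varied most, from 73.0 CPM in Y1 to 352 CPM in N2. Sptssb, a small subunit of serine palmitoyltransferase, the first enzyme of sphingolipid synthesis, ranged from 72.7 to 145 CPM, and Fbp2, a fructose-bisphosphatase, from 33.5 to 113 CPM. The glutathione transferases Gsta1 (33.5 to 86.6 CPM) and Gsta2 (96.5 to 139.6 CPM) share 97.2% of their transcript bases, and 94.3% of the last 300, so reads could have been split between them. In cells with a Ptprc UMI, which should lack these genes, 0 to 1.43% held a Gsta1 UMI and 0.174 to 6.76% a Tgm3 UMI, against 33.3 to 58.0% and 70.3 to 88.3% of the differentiating cells of those 5 libraries, with median depths of 3828 to 10800.5 UMIs in the former over all 8 libraries and 8273.5 to 24542 in the latter. Krt13 and Krt4 were less clean, with a Krt13 UMI in 23.6 to 59.6% of Ptprc-positive cells.

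Markers of several other cell types were low. Summed over the list, T cell markers stood at 0 to 2.68 CPM (Cd3g at 0 throughout), monocyte and macrophage markers at 4.27 to 9.04 CPM, endothelial markers at 0 to 3.01 CPM (Cdh5 and Kdr at 0) and muscle markers at 1.45 to 6.53 CPM in the 5 libraries. Erythroid globins summed to 4.53 to 96.4 CPM, neutrophil markers to 5.45 to 70.3 CPM and the fibroblast list to 61.1 to 440 CPM, nearly all of it Dcn, while Lum was at 0 and Dcn was higher in the basal comparison cells (751 to 1403 CPM). Gland or duct markers summed to 10.2 to 144 CPM with Muc5b at 0, papilla markers to 144 to 479 CPM against 84.1 to 209 CPM in the basal comparison cells, and cornifying cell markers to 479 to 1135 against 49.7 to 386 CPM. Basal markers were lower than in the basal comparison cells without being lost: Krt14 stood at 1642 to 3945 CPM against 10020.4 to 12541 CPM, and Col17a1, the hemidesmosomal collagen, at 55.8 to 141 against 414 to 581 CPM. The part of ambient RNA in these levels was not tested. Of 11218 cells with a Ptprc UMI, 30 met the rest of the rule, at most 1.95% in any library (E1). A doublet caller marked none of the 927 cells, but it marked few barcodes in any library. It marked 0.014% in E1, 0.446% in E2, 0.074% in EY1, 0.661 and 0.768% in the N pair, and 0.930 to 2.08% in the others. Whether it found the doublets present was not tested, so its result does not exclude doublets in any library.

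The cells were unevenly spread, and libraries differed in quality. The N pair held 376 and 24 of them, the E pair 400 and 41, the Y pair 64 and 13 and the EY pair 3 and 6, so 776 of 927 came from N1 and E1, and 86 from the 4 libraries with the YAP transgene. Deposited libraries held 2916 to 8139 barcodes and 46483469 to 102427359 UMIs. The median differentiating cell held 8273.5 UMIs in N2, 9890.0 in EY1 and 18350.5 to 24542 in the other 6 libraries. Across libraries 235 barcode sequences occurred more than once, none of them among these cells in more than 1 library.

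Some of the selected cells stood apart in N2 and E2. With under 1% mitochondrial UMIs, a limit chosen after the values were seen, there were 14 of 24 cells in N2 and 18 of 41 in E2, against 4 of 376 in N1, 5 of 400 in E1, 2 of 64 and 0 of 13 in the Y pair, and 2 of 3 and 0 of 6 in the EY pair. Only 24 cells lay between 1 and 2%, and 858 at 2% or more. These 45 cells had a median of 1294 genes against 3820.5 in the other 882, and the nuclear RNA Malat1 made up under 0.1% of UMIs in 44 of the 45 and in 17 of the 882 (medians 0 and 0.552%). They held more transcripts of late envelope genes and fewer of basal genes. In N2 and E2 the low-mitochondrial cells held Sprr1b and Cnfn, a pair of cornified envelope genes, at 752 and 789 CPM and at 709 and 568 CPM, and Serpinb3a at 1276 and 776 CPM, while all 3 genes were at 0 in the other cells of both libraries. Of the 45 cells 35 (77.8%) and of the 882 cells 181 (20.5%) held a UMI of at least 1 of these genes. These 3 genes had the largest rises in the low-mitochondrial cells of N2 and E2, so these counts partly follow from that choice. They describe cells, which are not replicates. Krt76, a suprabasal keratin of the oral mucosa, stood at 1035 and 170 CPM against 0 and 0, Serpinb12 at 1532 and 1239 against 34.4 and 22.4 CPM, and Krt4 at 19600 and 10653 against 3469 and 3635 CPM. In the other direction Malat1 stood at 99.3 and 45.7 against 9760 and 5004 CPM, Neat1 at 0 and 13.05 against 1618 and 905 CPM, Krt15 at 425 and 137 against 3270 and 3212 CPM, and Krt5 at 454 and 45.7 against 1870.1 and 2380 CPM. Loricrin stayed at 14.2 and 32.6 CPM, as the selection required. With no upper limit on genes or UMIs, cells under 1% mitochondrial UMIs were 14 of 89 in N2 and 21 of 162 in E2. They were 5 of 417 in N1, 5 of 464 in E1, 2 of 122 and 0 of 27 in the Y pair, and 2 of 13 and 0 of 7 in the EY pair. The shares in N2 and E2 were thus lower than under those limits. What set the low-mitochondrial cells apart was not tested, and the values without them stand beside the comparisons that follow.

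**Figure D1:**
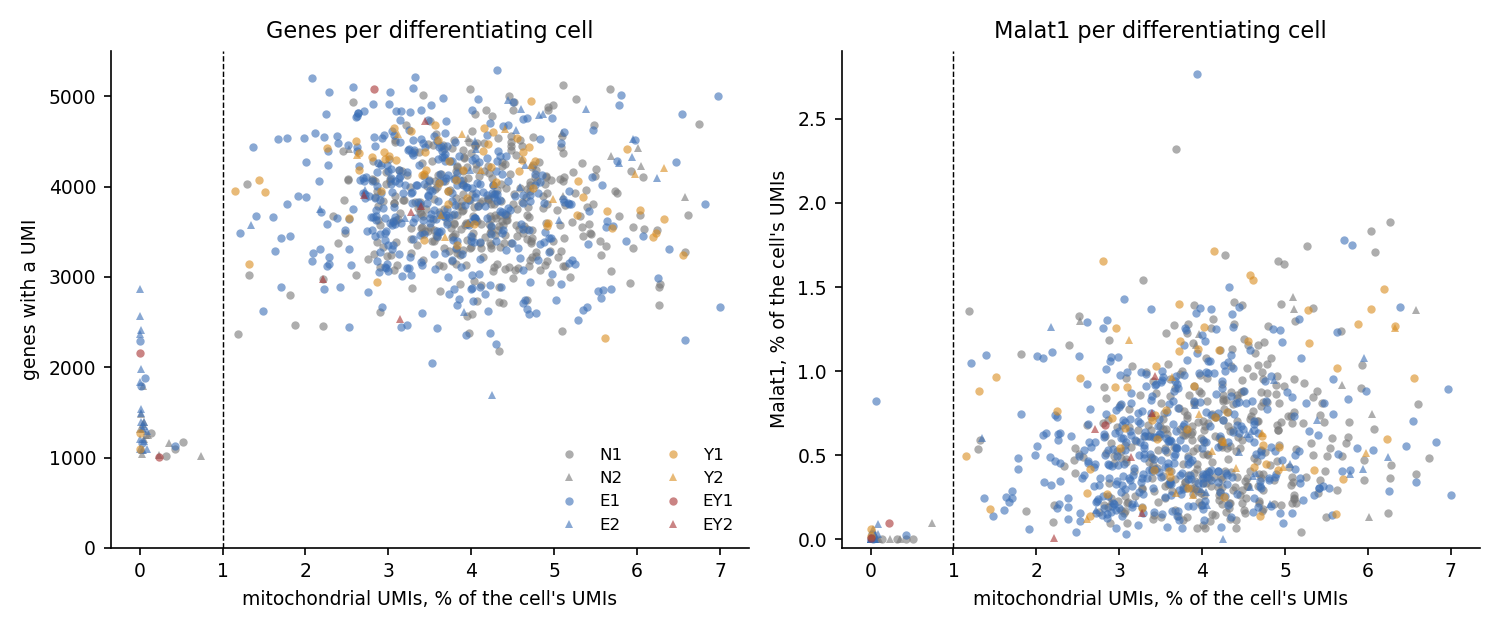
Every one of the 927 differentiating cells by its mitochondrial share of UMIs (x axis, %), against the number of genes with a UMI (left) and the share of UMIs from Malat1 (right, %), coloured by genotype with one symbol per library. A group of 45 cells sits below the dashed line at 1%, with few genes and almost no Malat1, and 32 of the 45 come from N2 and E2.

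The share of Krt13 cells that also held UMIs of the other genes was higher in the libraries without the YAP transgene than in those with it. Krt13 cells were taken as all 2013 cells within the limits that held no Ptprc UMI and at least 0.5% Krt13. Of these, 63.4 and 51.1% in the N pair and 60.4 and 51.3% in the E pair were differentiating cells by the full rule, against 22.4 and 6.16% in the Y pair and 18.8 (3 of 16 cells) and 5.08% in the EY pair. The 4 values without and the 4 values with the transgene did not overlap. The exact Clopper-Pearson 95% interval ran from 36.1 to 65.9% for N2 and from 17.7 to 27.7% for Y1, the neighbours across that gap, and such intervals cover counting error only. The median Krt13 cell held 9509 UMIs in N2 and 21124.5 in Y1. Krt13 cells with 5000 or more UMIs were also thinned to 5000 and the others dropped, which removed 18 of 47 cells in N2, 15 of 80 in E2 and 5 of 16 in EY1. The shares were then 33.2, 27.6, 29.4 and 27.7% without the transgene against 6.96, 0.971, 0 and 0.862% with it, in the same order, where the value of EY1 is 0 of 11 cells with an upper exact bound of 28.5%. With no upper limit on genes or UMIs, and the mitochondrial limit kept, they were 63.6 to 71.7% without and 5.56 to 26.0% with the transgene. Without cells under 1% mitochondrial UMIs they were 63.4 and 41.7% in the N pair, 60.4 and 41.1% in the E pair, 22.7 and 6.40% in the Y pair and 16.7 (1 of 6 cells) and 5.22% in the EY pair.

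The share of Krt13 cells did not follow the same order. As a share of cells with no Ptprc UMI they made up 16.6 and 9.51% in the N pair, 15.8 and 13.7% in the E pair, 19.6 and 18.5% in the Y pair and 6.25 and 5.17% in the EY pair. The differentiating cells were 10.5, 4.86, 9.54 and 7.02% of the same cells without and 4.39, 1.14, 1.17 and 0.263% with the YAP transgene. Among the differentiating cells the median number of the 8 genes was 5 or 6 in N and E and 4 in each Y and EY library. Just outside the limit of 4 genes stood 297 cells with 3 genes, with a median of 0.904% Krt13, 22 Krt4 UMIs and 72 Krt14 UMIs, and just inside it 257 cells with 4 genes, with 1.13%, 31 and 47. At the far end 91 cells with all 8 genes had medians of 2.42% Krt13, 213 Krt4 UMIs and 2 Krt14 UMIs.

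**Figure D2:**
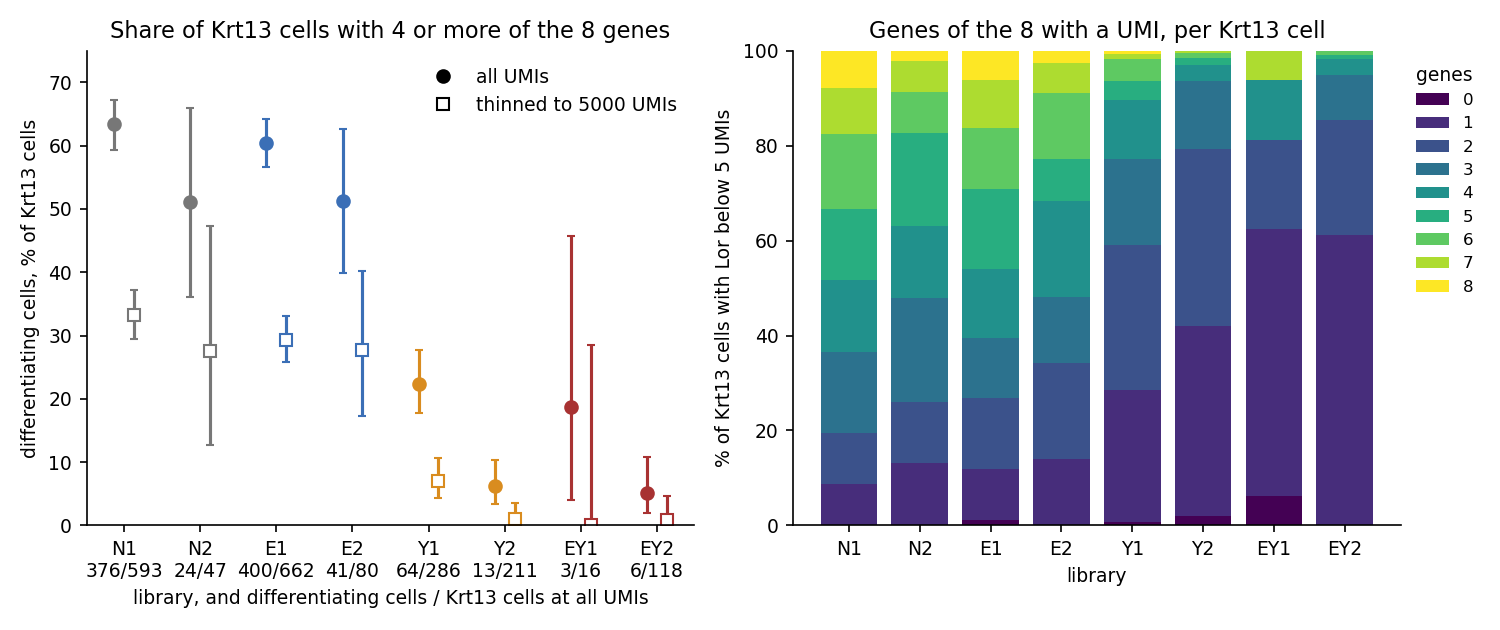
Left, the share of Krt13 cells that met the full rule in each library (y axis, %), with exact 95% binomial intervals, at all UMIs (filled circles) and with the cells of 5000 or more UMIs thinned to 5000 (open squares). Right, the share of Krt13 cells with fewer than 5 Lor UMIs by how many of the 8 genes had a UMI. The 4 libraries without the YAP transgene lie between 51.1 and 63.4%, and the 4 with it between 5.08 and 22.4%, most of their cells holding 1 or 2 of the genes.

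Beside basal cells of the same libraries, the differentiating cells differed along known lines of keratinocyte maturation. This contrast partly follows from the selection and is described with no test. Of 2621 genes at 50 CPM or more in one of the classes, 668 were higher and 849 lower in the differentiating cells of all 5 libraries. Krtdap, a keratinocyte differentiation-associated secreted protein, led with a mean difference of 4.16 in log2(CPM + 10) (SD 0.417, n = 5), at 1845 to 2923 CPM against 83.7 to 192 CPM. Next stood the keratins Krt32 (3.48) and Krt23 (3.35), Krt6b (3.32, with 12.1 CPM in N2 and 403 CPM in Y1), and Fabp5, the epidermal fatty acid binding protein, at 9856 to 14526 CPM against 783 to 1432 CPM. Calm4, a calcium binding protein of differentiating skin, was higher by 2.53, Sbsn (suprabasin) by 2.29, the cystatin Cst6 by 2.32, the cholesterol sulfotransferase Sult2b1 by 2.66, and the metallothionein Mt4 by 2.90. Without the low-mitochondrial cells 635 genes were higher and 755 lower in all 5 libraries. Of the 35 genes named from this contrast 30 kept their sign in each library, the exceptions being Krt23 (2.31), Krt6b (2.58), Serpinb3a (0.92), Sprr1a (1.35) and Sprr1b (0.68), given here as mean differences without those cells.

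Genes of the basement membrane zone and of basal signalling were the lowest. Wfdc2, a secreted whey acidic protein, had a mean difference of -3.38 on the same scale (24.1 to 30.1 CPM against 251 to 542 CPM), the matricellular gene Sparc of -2.86, the bone morphogenetic protein antagonist Sostdc1 of -2.66, the Notch ligand Jag2 of -2.58 and the activin antagonist Fst of -2.55. It was -2.46 for the laminin chain Lamb3, -2.27 for Col17a1, -2.32 for cyclin Ccnd2 and -2.26 for Wnt10a. By list, counting genes with the same sign in all 5 libraries, 11 of 13 cornified envelope genes, 11 of 13 desmosome and plakin genes, 8 of 9 serpin and protease inhibitor genes and 19 of 33 glutathione and xenobiotic enzyme genes were higher, against 19.1% of all 5370 genes at 20 CPM or more in a class. Of 18 basal adhesion and identity genes 16 were lower, as were 20 of 24 G2/M genes, 8 of 13 YAP target genes and 8 of 8 partial epithelial-mesenchymal transition genes, against 32.2% of all genes. Dsg1b, a desmosomal cadherin of upper layers, was higher by 2.13, Zfp750, a transcription factor of terminal differentiation, by 2.20, and the cell cycle inhibitor Cdkn1a by 1.34. For the YAP targets Ccn1 and Igfbp3 the difference was -2.30 and -2.29.

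**Figure D3:**
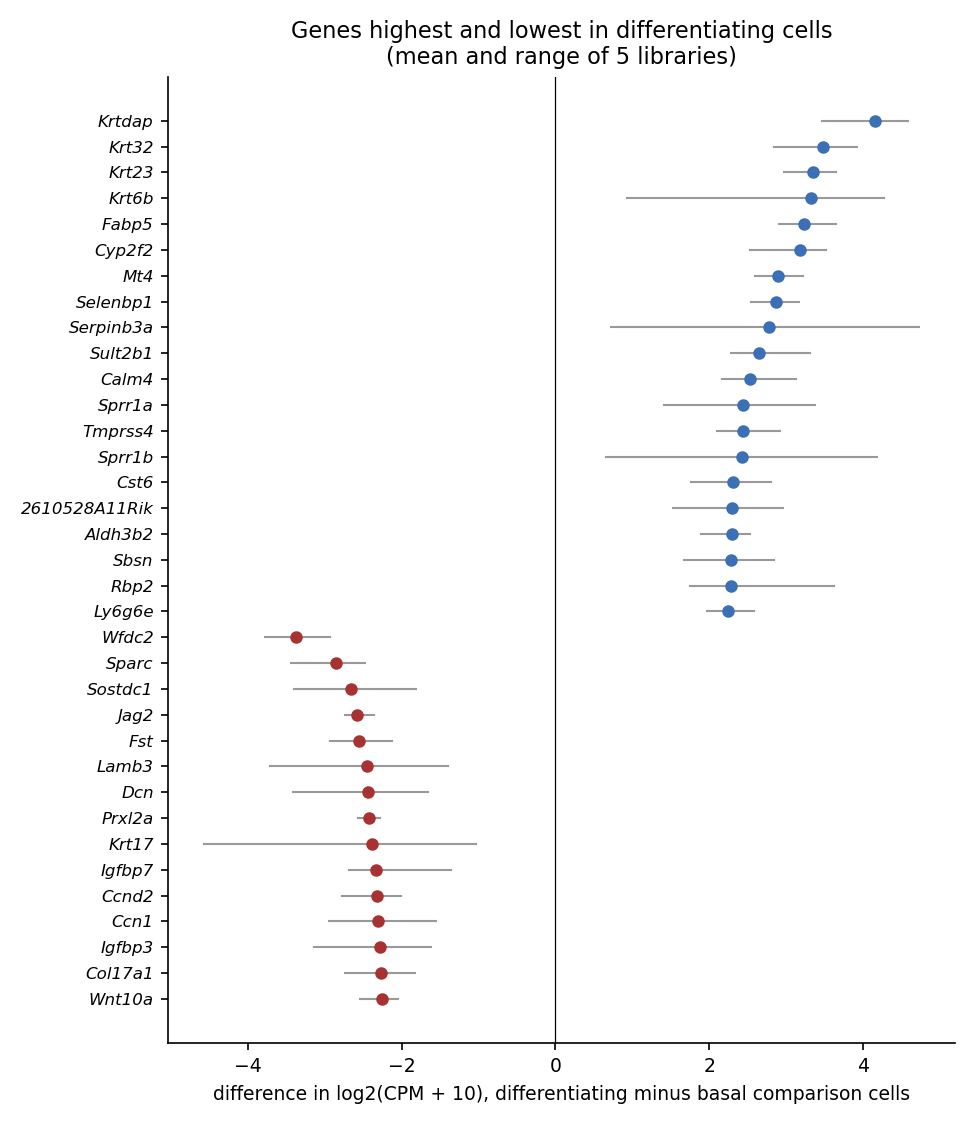
The 20 genes highest and 15 lowest in differentiating cells relative to basal comparison cells, leaving out the genes of the selection, as the difference in log2(CPM + 10) on the x axis. Points are means and lines the range over 5 libraries (N1, N2, E1, E2, Y1), from Krtdap at 4.16 to Wfdc2 at -3.38, and the ranges of Krt6b, Serpinb3a, Sprr1b and Krt17 are the widest.

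Within the selection the cells formed a gradient. Each cell was thinned to 2000 UMIs and sorted by how many of the 8 genes still had a UMI, giving 489 cells with 0 to 2, 349 with 3 or 4 and 67 with 5 to 8 over the 5 libraries. Krt14 stood at 4027, 2234 and 388 CPM in these 3 strata, Krt5 at 2219, 1291 and 612 CPM and Col17a1 at 94.1, 53.01 and 14.9 CPM. Krtdap went the other way with 1405, 2755 and 5164 CPM, as did Serpinb3a with 14.3, 77.4 and 478 CPM, Sbsn with 328, 559 and 933 CPM and Cnfn with 29.7, 71.6 and 224 CPM. The histone Hist1h2ap stood at 320.0, 379.7 and 97.0 CPM. Sprr3, a late envelope gene, was at 0 in all 3 strata. Without the low-mitochondrial cells Krtdap stood at 1381, 2448 and 4352 CPM and Krt14 at 4079.9, 2198 and 435 CPM, but Cnfn at 30.1, 38.3 and 27.8 CPM and Serpinb3a at 8.30, 41.4 and 157 CPM, so the gradient of Cnfn rested on those cells. The mean log2 difference between the outer strata of N1 and E1 was 1.75 for Krtdap and -3.15 for Krt14, with the same sign in both libraries.

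The response to active YAP was compared over the UMIs summed per library. Only libraries with 20 or more differentiating cells entered, which left Y1 as the sole library with the YAP transgene. With E6-E7 as a second term, the fitted YAP difference sets Y1 against N1 and N2. E1 and E2 inform the spread between libraries, with 2 residual degrees of freedom, but not the size of that difference. Levels and floor bounds given without the transgene include E1 and E2. By edgeR's quasi-likelihood test, 17 of 9072 genes passed a Benjamini-Hochberg adjusted p of 0.05, or 0.187% of those tested, with 16 higher and 1 lower. At an unadjusted p under 0.05 there were 478, and DESeq2 called 13. Y1, with 64 cells, is the group, and every p-value assumes that it varies as the other libraries do.

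Yap1 itself was the check of the labels. Its level was 25.4 and 33.1 CPM in the N pair, 23.6 and 20.4 in the E pair, 130.0 and 67.2 in the Y pair and 408 and 162 in the EY pair. The 4 libraries carrying the transgene lay above the 4 that lacked it, and in the fit Yap1 was higher by 2.33 on the log2 scale (SE 0.307, edgeR adjusted p = 0.0072). By the study's methods the gene counts used the mouse reference that ships with Cell Ranger, and transgene reads were counted in a separate alignment. Whether counts on mouse Yap1 hold transgene reads was not tested.

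The envelope and protease inhibitor genes gave the highest rises. Crct1, a cysteine-rich gene of the epidermal differentiation complex on chromosome 3, stood at 2.24 and 9.04 CPM in the N pair, 2.13 and 30.5 in the E pair and 338 in Y1, a log2 difference of 7.02 (SE 1.001, adjusted p = 0.0140). In the libraries outside the fit it stood at 20.2 CPM in Y2, 2662 in EY1 and 849 in EY2, so Y2 lay among the libraries without the transgene. Slpi, the secretory leukocyte protease inhibitor, stood at 20.8, 3.01, 61.6, 36.3 and 230 CPM from N1 to Y1 (3.78, SE 0.418, adjusted p = 0.00401), and at 6.72 CPM in Y2, 1247 in EY1 and 1932 in EY2. Again the EY libraries were the highest and Y2 was among the lowest. Wfdc12, of the same inhibitor family, stood at 3.07, 0, 3.73, 2.91 and 44.2 CPM (4.07, adjusted p = 0.0171) and at 0 in Y2 and both EY libraries.

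Spink5, an inhibitor of kallikreins that restrains shedding of the surface, was higher by 1.72 (104.7 to 174 CPM in N and E, 519 CPM in Y1, 151 CPM in Y2), and Klk10, a kallikrein, by 2.45 (33.1 to 76.6 CPM in N and E, 266 CPM in Y1, 60.5 CPM in Y2, 671 and 695 CPM in EY). Asprv1, a skin aspartic protease, rose by 2.04. In the serpin and protease inhibitor list 9 of 13 tested genes were positive and in the kallikrein and protease list 12 of 13. For the cornified envelope list it was 11 of 19, beside 49.0% of all tested genes. Their medians were 0.21, 0.54 and 0.42 on the log2 scale, beside -0.01 over all genes. Cnfn of the envelope list, at 12.6, 151, 25.7, 126 and 216 CPM, did not pass, and its levels in N2 and E2 came from the low-mitochondrial cells.

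Of the hypoxia list Egln3 and Bnip3 rose. In this list 15 of 17 tested genes were positive (median 0.46), beside 49.0% of all tested genes. Egln3, a prolyl hydroxylase that marks hypoxia-inducible factor for destruction, stood at 21.0, 6.02, 16.7, 15.99 and 93.8 CPM from N1 to Y1 and at 43.7, 120 and 126 CPM in Y2, EY1 and EY2 (2.42, adjusted p = 0.0165). Bnip3, a mitophagy receptor, stood at 6.02 to 10.2 CPM without the transgene, 43.5 and 50.4 CPM in the Y pair and 0 and 54.2 CPM in the EY pair (2.40, adjusted p = 0.0393). Plb1, a phospholipase, stood at 24.1 to 48.6 CPM without the transgene and at 308, 188, 240 and 144 CPM in Y1, Y2, EY1 and EY2 (2.93, adjusted p = 0.00401). For Egln3 and Plb1 all 4 libraries with the transgene were above all 4 without it, which was not so for Crct1, Slpi or Wfdc12. Of 17 glycolysis genes 16 were positive (median 0.40), and of 11 glycogen and gluconeogenesis genes 2 (median -0.63). Of 18 YAP target genes 16 were positive (median 1.04), beside 49.0% of all tested genes. No gene of these lists was called.

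The remaining calls were few. Ifi202b, an interferon-inducible gene, rose by 3.08, Isg15, an interferon-induced ubiquitin-like protein, by 2.21 and Ifi27l2a, also interferon-induced, by 2.21. For the latter pair the Y1 levels (165 and 1012 CPM) lay above N but below E (461 to 520 and 2314 to 3033 CPM) and the libraries of the arms overlapped. 2200002D01Rik rose by 2.98, the calcium binding S100a6 by 1.79 and the small GTPase Rhod by 2.05. Krt76 was at 0 of 1492575 UMIs in Y1 and stood at 86.1 and 220 CPM in the N pair and at 6.13 and 37.8 CPM in the E pair. Against a floor of 3 counts in Y1 it was at least 24.1-fold lower than in the N and E libraries pooled. In the fit, where the YAP difference sets Y1 against the N pair only, Krt76 did not pass. Of its 761 UMIs N1 held 616, the bound was 8.46-fold without N1 and 43.5-fold without E1, and all its UMIs in N2 and E2 came from low-mitochondrial cells. Neutrophil markers summed to 70.3 CPM in Y1 against 5.45 to 36.1 CPM elsewhere, mostly S100a8 and S100a9, with Csf3r at 0 in Y1, and their part in these results was not tested.

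**Figure D4:**
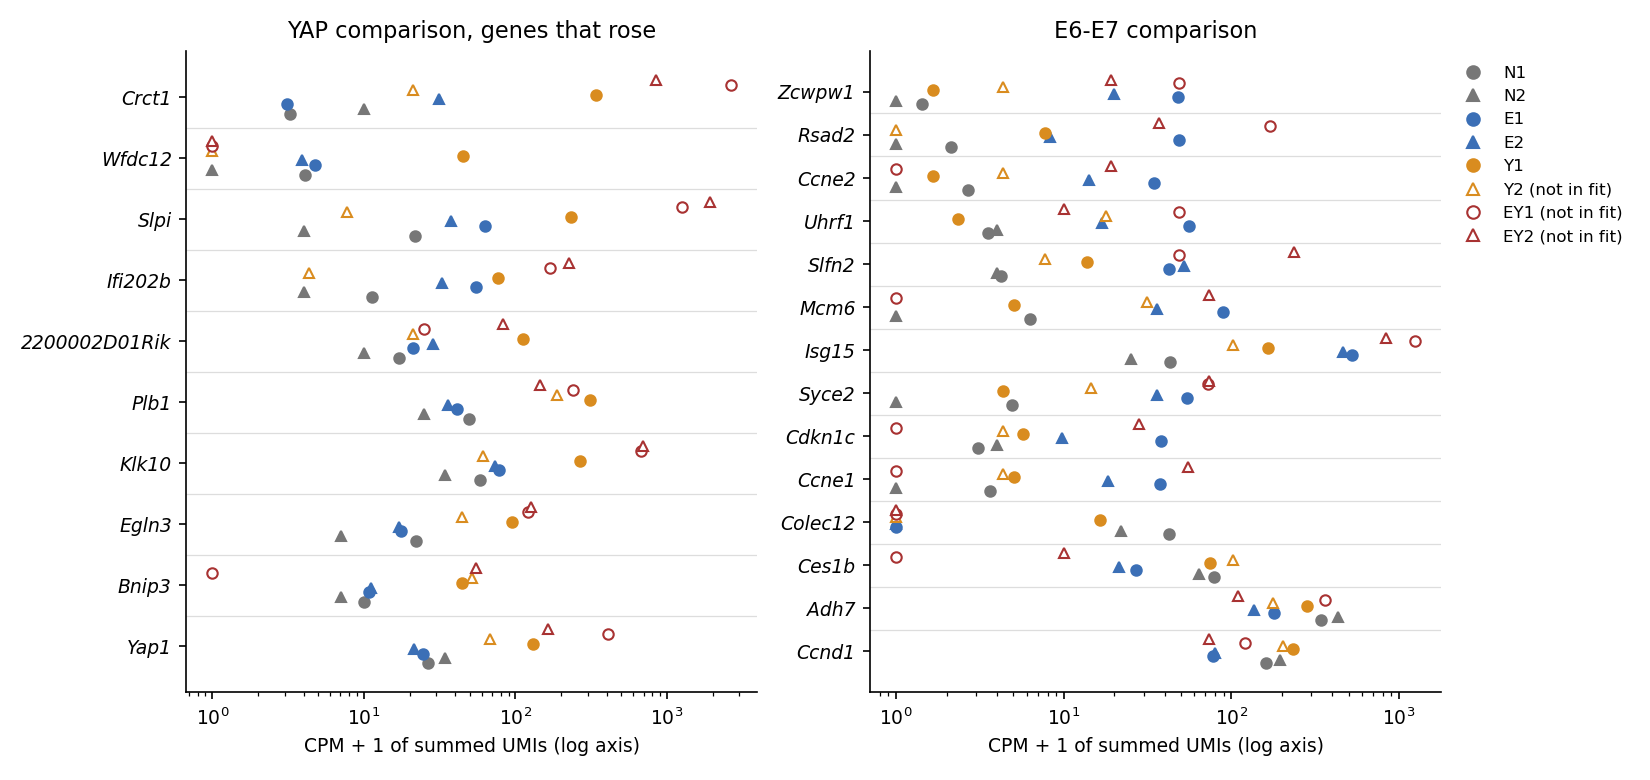
Levels of the named genes in the differentiating cells of each library, as CPM + 1 on a log axis, for the genes higher in the YAP comparison (left) and the E6-E7 comparison (right). Filled symbols entered the fit and open symbols had too few cells. Y1 lies to the right in the left panel, as at 338 CPM for Crct1, while Y2 lies at 20.2 CPM for that gene.

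The calls were sensitive to which cells and libraries entered. Without the low-mitochondrial cells N2 fell under 20 cells and only Crct1 was called, with differences of 1.69 to 3.83 in the same direction for the other 15 rises, and with N2 kept at 10 cells only Ifi27l2a was called. Leaving out 1 library at a time gave 51 calls without N1, 126 without N2, 101 without E1 and 181 without E2. The mix of stages already differed between the arms of the main fit. Just 4 of the 8 genes were held by 35 of 64 selected cells in Y1. That was so for 90 of 376 in N1, 7 of 24 in N2, 96 of 400 in E1 and 16 of 41 in E2. To bring in Y2 and EY2, the fit was repeated, after seeing these values, on all Krt13 cells. No requirement for the 8 genes was made, which changes that mix again. Over 7 libraries with 20 or more Krt13 cells, 465 of 10824 genes (4.3%) passed, 309 higher and 156 lower. All 17 genes kept their sign and 12 were called again, including Slpi (4.26), Klk10 (2.55), Egln3 (3.58), Bnip3 (2.37) and Plb1 (2.62). Crct1 was not (5.86, adjusted p = 0.0648), its level in these cells being 248 CPM in E2. There 11 of 23 YAP target genes rose and none fell, among them Ccn1 (2.14) and Amotl2 (3.12), as did 8 of 19 glycolysis genes including Tpi1 (1.16) and Aldoa (0.87), while Krt76 fell (-7.17, adjusted p = 0.00821). In the glutathione and xenobiotic list 3 rose and 6 fell of 43, with Nqo1, a quinone reductase, among the falls (-1.42).

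The fitted response to E6-E7 sets 2 libraries, E1 and E2, against N1 and N2. Y1 is fitted by its own YAP term and does not enter that difference, so its levels are given beside it. Here 92 of 9072 genes passed, or 1.01% of those tested, with 86 higher and 6 lower. At an unadjusted p under 0.05 there were 551, and DESeq2 called 38. Among the 86 rises were 17 genes of the interferon list and 18 of the list for entry into S phase.

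Isg15 stood at 41.9 and 24.1 CPM in the N pair, 520 and 461 in the E pair and 165 in Y1, a log2 difference of 3.70 (SE 0.256, edgeR adjusted p = 3.05e-05), and at 101 CPM in Y2, 1247 in EY1 and 840 in EY2. Both E libraries stood above every library without E6-E7, as did both EY libraries outside the fit. Rsad2, the antiviral enzyme viperin, stood at 1.12, 0, 47.7, 7.27 and 6.70 CPM (4.92, adjusted p = 0.00788), with E2 barely above Y1. Slfn2, an interferon-inducible growth regulator, stood at 3.21, 3.01, 41.2, 50.9 and 12.7 CPM (3.79, adjusted p = 0.00077). Of 26 tested genes of the interferon list 17 rose and none fell, among them Irf7, Irf9, Bst2, Usp18 and Oasl2. In this list 25 were positive and the median was 2.89. Over all 9072 tested genes 1.01% passed and 50.5% were positive.

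Genes for DNA replication rose with them. Mcm6, a subunit of the replicative helicase, stood at 5.31, 0, 87.6, 34.9 and 4.02 CPM from N1 to Y1 (3.77, SE 0.477, adjusted p = 0.0024). Ccne1 and Ccne2, the cyclins E that start S phase, stood at 36.7 and 33.5 CPM in E1, 17.4 and 13.1 CPM in E2 and at most 4.02 CPM in the other 3 libraries. Uhrf1, which maintains DNA methylation behind the fork, was higher by 3.96. Of 26 G1/S genes 18 rose, all 26 were positive and the median was 2.54, which included Mcm2 to Mcm7, Pcna, Cdt1, Rrm2, Tyms and Fen1. Of 33 G2/M genes none passed, all 33 were positive and the median was 1.01. Over all tested genes 1.01% passed and 50.5% were positive. The meiotic genes Zcwpw1, a histone methylation reader, and Syce2, a synaptonemal complex protein, rose by 6.39 and 3.67. Zcwpw1 stood at 0.419, 0 and 0.670 CPM in N1, N2 and Y1 against 46.9 and 18.9 CPM in E1 and E2, and at 48.0 and 18.1 CPM in EY1 and EY2. Cdkn1c, a cyclin-dependent kinase inhibitor, rose as well (3.61, adjusted p = 0.0157).

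The falls were few. Colec12, a scavenger receptor, was at 0 in both E libraries and at 41.6, 21.1 and 15.4 CPM in N1, N2 and Y1. Against a floor of 3 counts over the E libraries it was at least 99.7-fold lower than in N1, N2 and Y1 pooled. Without Y1, which the fitted E6-E7 difference leaves out, the bound was 111-fold. The pool held 328 UMIs, of which N1 held 298. Without N1 the bound was 44.9-fold. Colec12 was at 0 in Y2, EY1 and EY2 as well. In basal comparison cells Colec12 stood at 0.0958 and 0 CPM in E1 and E2 and at 55.9, 8.82 and 21.0 CPM in N1, N2 and Y1. In the basal cells of the libraries outside the fit it stood at 0 CPM in Y2 and EY1 and at 8.60 CPM in EY2. Its level there thus did not follow E6-E7 in every library, and in all Krt13 cells its fall (-4.38) was not called. Ces1b, a carboxylesterase on chromosome 8 like Ces1h, stood at 77.6, 63.3, 26.0, 20.4 and 73.7 CPM from N1 to Y1 (-1.63, adjusted p = 0.00851). Adh7, the retinol-oxidising alcohol dehydrogenase of upper digestive epithelium, stood at 342, 431, 178, 135 and 280.1 CPM (-1.33, adjusted p = 0.016). Cyclin Ccnd1 stood at 161, 193, 76.8, 78.5 and 233 CPM (-1.22, adjusted p = 0.0278), and in EY1 and EY2 at 120 and 72.2 CPM. The nuclear receptor Rora, the sole call among 35 differentiation transcription factors, fell by 1.60.

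Other lists of differentiation genes held no calls under E6-E7. None of 19 cornified envelope, 15 suprabasal and stress keratin, 14 desmosome and plakin, 13 serpin and protease inhibitor, 35 sphingolipid and barrier lipid or 17 p53 target genes passed, with medians of 0.11, 0.33, -0.05, -0.05, 0.07 and -0.15. A p above the threshold in so small a design does not show that they were alike. Without the low-mitochondrial cells 9 genes were called, among them Isg15, Syce2, Slfn2 and Colec12, and with N2 kept at 10 cells 37 were called. In all Krt13 cells 44 of 10824 genes passed (0.407%), 27 of the 92 were called again and all 92 kept their sign. Leaving out 1 library gave 58 calls without E1 and 415 without E2.

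The response to YAP was also compared with that in basal comparison cells of the same libraries, as the difference of the differences. By edgeR 62 of 12774 genes passed, or 0.485%, with 24 higher and 38 lower, and DESeq2 called 7. Y1 is the sole library with the transgene in this fit too, so the test cannot measure how libraries with the transgene vary. Igfbp5, a secreted growth factor binding protein, differed in the basal cells. It stood at 97.2 to 178 CPM without the transgene and 7.67 CPM in Y1 in basal cells. The levels in differentiating cells were 12.05 to 37.8 and 23.4 CPM, a difference of the differences of 3.89. Outside the fit Igfbp5 stood at 11.96 CPM in basal and 50.4 CPM in differentiating cells of Y2. For EY1 and EY2 it stood at 1.57 and 0.216 CPM in basal cells and at 0 in differentiating cells. Cnfn went from 0.183 to 6.52 CPM to 88.0 CPM in basal cells and from 12.6 to 151 CPM to 216 CPM in differentiating cells (-3.62), and the difference of the differences was -3.79 for Sprr1b and -3.64 for Crabp2, a retinoic acid binding protein. Sprr1b stood at 0.256 to 3.64 CPM without and 22.3 CPM with the transgene in basal cells, and at 14.7 to 176 and 40.9 CPM in differentiating cells. Cnfn, Sprr1b and Crabp2 are among the genes high in the low-mitochondrial cells of N2 and E2, and without those cells their differences were -4.57, -3.01 and -3.28. In Y2, outside the fit, Cnfn stood at 244 CPM in basal and 6.72 CPM in the 13 differentiating cells.

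Cycling was read from the share of cells with 2 or more UMIs of a G2/M gene list after thinning to 2000 UMIs. It was 20.2% (76 of 376) and 12.5% (3 of 24) in the N pair, 42.0% (168 of 400) and 26.8% (11 of 41) in the E pair and 7.81% (5 of 64) in Y1. Both E libraries stood above the other 3, a difference in mean of 20.9 percentage points (two-sided exact permutation test, p = 0.1, the smallest that 10 labellings allow). Y1 stood lowest, 17.6 points below the mean of the other 4 (exact permutation p = 0.4 over 5 labellings, a design that cannot reach 0.05). Basal comparison cells counted in 41.9 and 37.3% in the N pair, 42.6 and 32.8% in the E pair and 35.4% in Y1, so the differentiating cells of all 5 libraries lay below theirs, in E1 by the least. In the small libraries 2 of 13 cells in Y2, 1 of 3 in EY1 and 5 of 6 in EY2 counted, beside 52.4, 61.9 and 85.3% of basal comparison cells. Without thinning the E6-E7 difference was 5.13 points (p = 0.7) and the YAP difference turned to 6.13 points above, exact permutation tests at median depths of 24542 UMIs in Y1 and 8273.5 to 18953 in the other 4. With no upper limits on genes and UMIs the E6-E7 difference was 13.3 points and the YAP difference -0.096 points, with Y1 at 21.3%, N1 at 21.1% and Y2 in the comparison. Without E1 the E6-E7 difference was 13.3 points, and without the low-mitochondrial cells, which leaves out N2, it was 19.7 and the YAP difference -21.2 points. All 33 G2/M genes had negative YAP differences (median -2.04), led by Nusap1 (-3.39) and Cenpf (-2.92), and none was called. Over all tested genes 49.0% of the YAP differences were positive. In all Krt13 cells, with Y2 and EY2 in the fit, 26 of the 33 were positive with a median of 0.36.

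**Figure D5:**
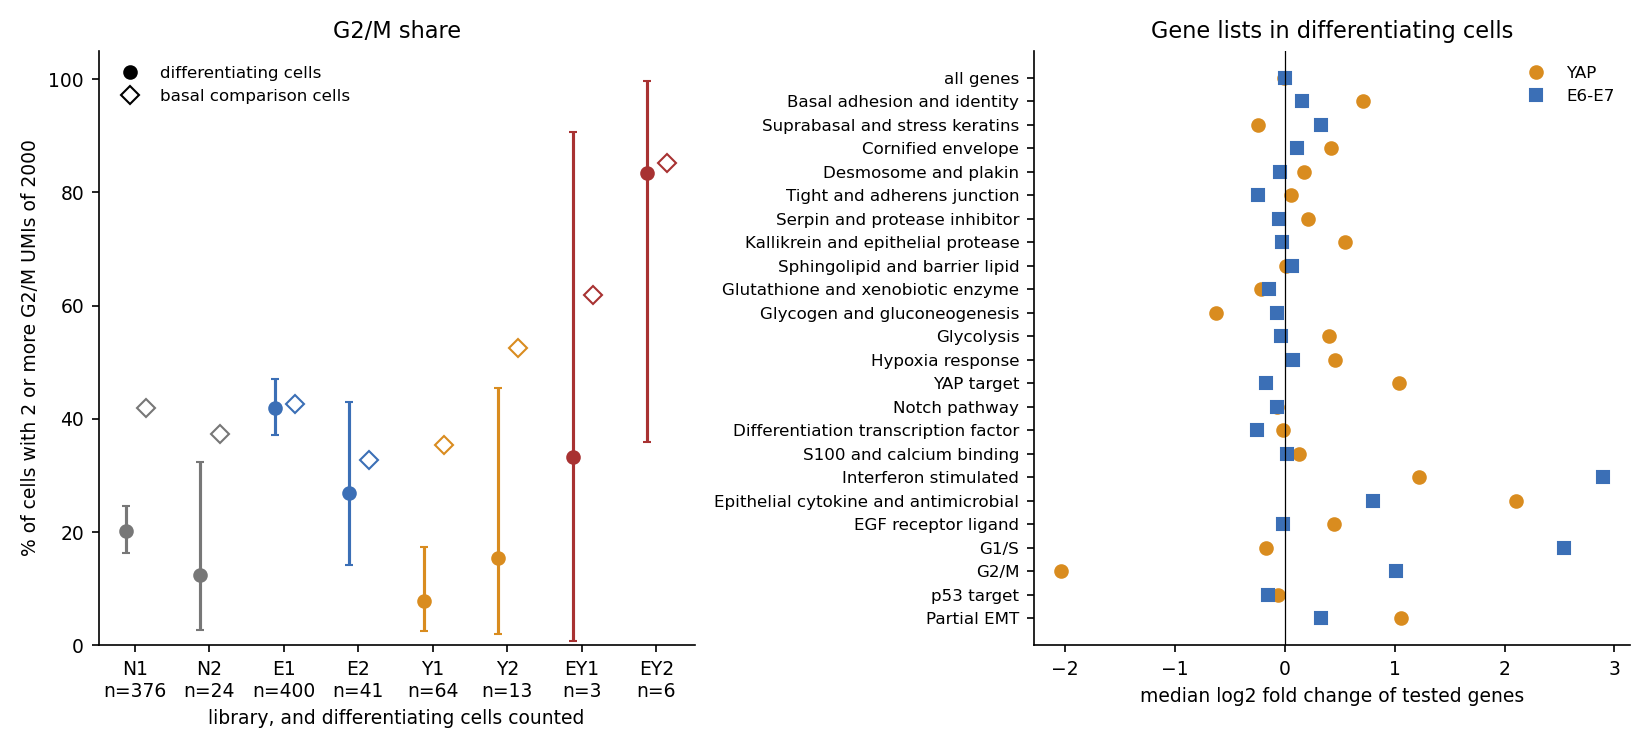
Left, the share of differentiating cells with 2 or more G2/M UMIs of 2000 in each library (%, circles, with exact 95% binomial intervals) beside that of basal comparison cells (diamonds). Right, the median log2 fold change of the tested genes of each list for the YAP and E6-E7 terms, where interferon and G1/S genes stand out at 2.89 and 2.54 for E6-E7 and the G2/M genes at -2.04 for YAP.

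Both transgenes together could not be compared with N over libraries of 20 or more cells, because EY1 held 3 and EY2 6 differentiating cells. With every library entered, 57 of 5952 genes passed between EY and N by edgeR (0.958%), 34 higher and 23 lower, and DESeq2 called 109. Each EY value rests on those few cells. Crct1, Slpi, Klk10, Yap1, Isg15 and Slfn2 rose, with log2 differences of 8.94, 6.35, 3.54, 2.96, 4.54 and 5.56. Klk12, a kallikrein, stood at 1.54 and 0 CPM in the N pair and 120 and 253 CPM in the EY pair (6.93, adjusted p = 0.00375). Tnfaip2 (6.83) rested on 1 and 26 UMIs in the EY pair. S100a8 (6.79) is a neutrophil gene, and summed neutrophil markers stood at 1271 and 217 CPM in these cells and at 2413 and 563 CPM in the basal comparison cells of the EY pair. Their part in this result was not tested.

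Among the falls, Krt24, a keratin, was at 0 in the EY pair and held 1404 and 77 UMIs in the N pair, and Id2, an inhibitor of basic helix-loop-helix factors, was at 0 with 580 and 21 UMIs in N. Mgst3, a microsomal glutathione transferase, stood at 267 and 205 CPM in N and 71.9 and 9.03 CPM in EY (-3.37, adjusted p = 0.0362), and Tst, the sulfurtransferase rhodanese, at 242 and 202 against 24.0 and 45.1 CPM (-2.74). Chit1, a chitinase, fell by 2.69 and the receptor Notch1 by 2.75. By DESeq2 Notch1 (adjusted p = 0.105), Id2 (0.0501) and, among the rises, Tnfaip2 (0.203) were not called. Krtdap, Cnfn and Krt17 did not pass. Krtdap stood at 2902 and 6789 CPM, against 1845 to 2923 CPM in the 5 fitted libraries and 309 CPM in Y2, Cnfn at 935 and 1156 CPM, and Krt17, a stress keratin, at 2110.3 and 9587 CPM against 45.2 to 728 CPM. Krt76 was at 0 in both EY libraries too and did not pass (adjusted p = 0.192). With 111 and 94 UMIs of Crct1 from 41701 and 110771 UMIs in all, these levels rest on few molecules, and of the 3 cells of EY1 2 were low-mitochondrial.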

How the data were processed

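Tongue epithelium was dissociated, viable cells were sorted, and 1 droplet library per sample was made with a 10x Genomics 3' kit, given as v2 in the labels and as v3.1 in the study's methods. The authors deposited filtered UMI counts per gene and cell, not normalized, made with Cell Ranger 5.0.0 per the file headers, on build mm10. Each matrix holds 32285 features. The values deposited are raw counts, so they were tested as counts.

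The selected cells and all gene lists were chosen with earlier results of these data known. No doublets were removed, and Scrublet (scanpy 1.11.5) served as an alternative. UMIs were summed over the selected cells of each library, and the libraries are the replicates. Libraries with 20 or more such cells entered edgeR 4.0.16 (R 4.3.3, filterByExpr, TMM, glmQLFit and glmQLFTest) with a YAP and an E6-E7 term, which tested 9072 genes at a Benjamini-Hochberg adjusted p under 0.05. DESeq2 1.42.0 was an alternative, as were other scaling, no filter on low counts, other cell limits, 5 or more marker genes, no immune UMI, thinning and each library left out. On simulated counts with 200 of 9072 genes changed 4-fold, the YAP term recovered 64% and the E6-E7 term 89%. Every simulated gene had the same spread between libraries, so these shares need not hold for the real genes. The selected cells held 41701 to 7502671 UMIs per library, so levels of the smallest libraries are the least precise.

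Named genes had to be called, reach 20 CPM on average in an arm and not overlap between the arms' libraries. The arms are all fitted libraries with and without a transgene. They take in E1 and E2 for YAP and Y1 for E6-E7, although the fitted differences set Y1, or E1 and E2, against N1 and N2. The 10 largest rises and the 10 largest falls were taken, plus Yap1 and the 3 largest of each list. For the YAP term the other 6 called genes were also named after their values were seen. Some genes that the rule names are not reported here. The difference between cell classes used the 5 largest each way, and the comparison with basal cells the 20 highest and 15 lowest genes. Log2(CPM + 10) used an offset of 10 CPM. Motifs were searched in RefSeq promoters, with no entry read for Krt4, and gene positions come from GENCODE for GRCm38. Intervals of shares are exact Clopper-Pearson intervals at 95% and cover counting error only.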

Additional observations from a re-analysis of the deposited data

Results flagged for a closer look

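The change with the YAP transgene was compared between differentiating and basal comparison cells by edgeR, with Y1 set against N1 and N2. The 10 genes named from that comparison follow. The differences in log2 fold change, differentiating minus basal, were 4.02 for Krt79, 3.89 for Igfbp5, 2.46 for Hbb-bs, 2.20 for Prlr and 2.12 for Usp18. They were -3.79 for Sprr1b, -3.64 for Crabp2 and -3.62 for Cnfn. The fitted values of -11.90 for 2310046K23Rik and -9.44 for Ect2 are no bounds, since both genes were at 0 in the differentiating cells of Y1. Against a floor of 3 counts Ect2, a cytokinesis factor, was at least 7.30-fold lower there (230 UMIs in the other arm), while it stood at 12.1 to 31.7 CPM without and 22.4 CPM with the transgene in basal cells. 2310046K23Rik stood at 0.279 and 45.2 CPM in the N pair and at 5.47 and 45.1 CPM in the E pair, high in the libraries with many low-mitochondrial cells. Without those cells its adjusted p was 1.

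Krt79, a keratin, stood at 2.91 to 21.1 CPM without and 36.8 CPM with the transgene in differentiating cells, and at 3.26 to 9.62 and 1.14 CPM in basal cells. Prlr, the prolactin receptor, stood at 3.01 to 41.6 and 12.1 CPM, and at 8.62 to 23.1 and 1.60 CPM in basal cells. Usp18, which removes Isg15 from proteins, stood at 0 to 40.0 and 15.4 CPM, and at 4.03 to 58.9 and 6.08 CPM. Hbb-bs is a globin of red cells and stood at 2.80 to 42.2 and 13.4 CPM in differentiating and at 15.8 to 151 and 17.1 CPM in basal cells. The part of free RNA in the Hbb-bs values was not tested.

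Yap1 was also read in the 3 libraries with too few differentiating cells for the fit. It stood at 67.2 CPM in Y2 (20 UMIs), 408 CPM in EY1 (17 UMIs) and 162 CPM in EY2 (18 UMIs), above the 25.4 and 33.1 CPM of the control libraries N1 and N2.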

How the results depend on the processing

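No paired analysis was possible because the labels give no replicate numbers and library numbers only name samples. The YAP comparison cannot be made without Y1 in cells that meet the full rule, and the comparison of EY with N was made only with every library entered, because neither EY library reached 20 cells. It gave 57 calls, 109 by DESeq2 and 748 with no upper limits. For it the other settings were not run. Direction held better than counts: of the named genes' alternatives, 4 reversed, with Hbb-bs at -0.025 without N1 (to 2.89 without N2) and Ect2 at 0.45 with no upper limits in the comparison with basal cells, and with Yap1, which did not pass under E6-E7 (-0.29), at 0.033 with no upper limits and 0.33 with every library. Leaving out 1 library gave 51 to 181 YAP calls and 58 to 415 E6-E7 calls, 30 to 76 calls for the difference from basal cells, and, in Krt13 cells with no marker genes required, 164 to 413 YAP and 2 to 174 E6-E7 calls (for YAP 210 and 335 on leaving out N1 or N2, 216 and 399 on leaving out E1 or E2 and 219 without Y2, and for E6-E7 22 without Y1 or EY2). The causes of the shifts below were not tested. YAP calls numbered 153 with no filter, 97 with no upper limits, 34 with 5 or more marker genes, 132 with 4 or 5, 75 with no immune UMI, 2 after thinning to 2000 UMIs, and 1 without low-mitochondrial cells at either minimum of cells. In Krt13 cells they numbered 465, 795 by DESeq2 and 613 with every library. E6-E7 calls numbered 38 by DESeq2, 291 with no filter, 169 with no upper limits, 141 with 5 or more marker genes, 167 with 4 or 5, 191 with no immune UMI, 5 after thinning, and 9 or 37 without low-mitochondrial cells at a minimum of 20 or 10 cells. In Krt13 cells they numbered 44 and 290 by DESeq2. The difference from basal cells gave 7 calls by DESeq2, 40 with no upper limits, 29 with 5 or more marker genes, 19 with no immune UMI, 4 after thinning and 166 with every library. With every library the YAP and E6-E7 calls numbered 16 and 81. The G2/M difference for YAP turned to 6.13 points without thinning and was -0.096 points with no upper limits, and that for E6-E7 was 5.13 and 13.3 points. The settings with 4 or 5 marker genes, with no upper limits for EY, without low-mitochondrial cells and in Krt13 cells were chosen after seeing the data. The YAP term rests on 1492575 UMIs of 1 library.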
